A study of Homo sapiens with 6 samples.

Results

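Respiratory complexes II to V carry electrons from succinate and quinol to oxygen and make ATP in the inner mitochondrial membrane. Their subunit genes were compared here between THP-1 cells from 2 biorepositories. The members were the protein-coding genes of GENCODE 29 with the symbols SDHA to SDHD, CYC1, MT-CYB and MT-CO1 to MT-CO3, or with symbols that start with UQCR, COX4 to COX8, ATP5 or MT-ATP. These were 58 of the 34913 genes in the table, 52 nuclear-encoded and 6 mitochondrially encoded. Complex II had 4 members, complex III 11, complex IV 20 and complex V 23. A few of them are not standard subunits: ATP5IF1 is the inhibitor of ATP synthase, COX7A2L is known as a factor of respiratory supercomplexes, ATP5S is an associated factor now named DMAC2L, and ATP5MF-PTCD1 is a read-through gene. UQCRHL and ATP5MGL are copies of UQCRH and ATP5MG.

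THP-1 cells come from a human acute monocytic leukaemia and grow in suspension. Those supplied by ATCC, the American Type Culture Collection, and by DSMZ, its German counterpart, were untreated and were cultured side by side under the same conditions, and 3 libraries of poly(A) RNA were made for each source. The medium was RPMI with 20% FBS, at 37 °C and 5% CO2. Growth lasted 48 h, cultures were then split, and cells were taken 24 h later in log phase; the labels describe the replicate expansions as independent. The 2 groups share the line, medium, density and time and differ in the supplier, and a difference between suppliers and one between the cell stocks that happened to be obtained cannot be told apart. RNA was measured in bulk, so fewer cells that express a gene and less RNA per cell cannot be told apart either.

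Complex II, succinate dehydrogenase, passes electrons from succinate to ubiquinone and is also an enzyme of the citric acid cycle. Complex III passes them from ubiquinol to cytochrome c, complex IV (cytochrome c oxidase) from cytochrome c to oxygen, and complex V (ATP synthase) uses the proton gradient so built up to make ATP. Complex II is encoded wholly in the nucleus, while the catalytic cores of complexes III and IV and the proton channel of complex V include proteins encoded by mitochondrial DNA, which is transcribed as long polycistronic RNAs that are then cut into single messengers. Several subunits of complex IV exist as pairs encoded by separate genes, with one form typical of muscle, lung or testis and the other found in most tissues.

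Library totals ranged from 23413428 to 37119721 estimated counts, and mitochondrially encoded genes held 3.94 to 5.02% of the counts. In base composition, ATCC replicate 2 stood apart. Genes were put in 10 groups by GC content, and each library was compared with the other 2 of its source. On the log2 scale the median deviation of ATCC replicate 2 was -0.87 in the lowest group and 0.33 in the highest. ATCC replicate 1 was at 0.58 and -0.22 and replicate 3 at 0.27 and -0.10, each compared with a pair that includes replicate 2. Each DSMZ library lay between -0.05 and 0.06 of the others. Every monocytic marker of the line had counts in both groups. Their sums were 691 to 1015 CPM (library-scaled counts) for ATCC and 947 to 1069 for DSMZ. CD14 was low, at 0.892 to 1.55 CPM (ATCC) and 0.25 to 0.434 CPM (DSMZ). Single markers went both ways. CD33 was at 57.7 to 66.4 CPM (ATCC) and 22.9 to 26.1 CPM (DSMZ). SPI1, FCGR1A and CD14 were also lower in each DSMZ library. MPO was at 10.1 to 12.04 CPM (ATCC) and 74.2 to 109.3 CPM (DSMZ). CD4 and CSF1R were also higher in each DSMZ library, and LYZ and ITGAM overlapped. The marker lists of T and NK, B, epithelial, fibroblast and erythroid cells summed to at most 22.2 CPM in any library, with CD3E and MS4A1 at 0 in all libraries. For the B-cell list the sums were 6.63 to 7.64 CPM (ATCC) and 18.6 to 22.2 CPM (DSMZ), for fibroblasts 2.36 to 3.29 and 4.35 to 5.38, and for erythroid cells 0.0714 to 0.106 and 0.564 to 0.814. The T and NK list ran the other way, at 6.60 to 7.87 CPM (ATCC) and 3.82 to 4.25 CPM (DSMZ), and the epithelial list overlapped. Their part in the results was not tested.

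Sequences bear on 2 of the measurements below. The first is how reads are shared between UQCRH, the acidic hinge protein of complex III, and UQCRHL, its copy without introns. Their coding sequences are both 276 bases long, and 4 bases differ (98.6% identity), with a longest identical run of 157 bases. UQCRH has 4 coding exons at chr1:46303767-46316584 on the plus strand, and the UQCRHL coding sequence lies in 1 exon at chr1:15807374-15807649 on the minus strand (GRCh38, GENCODE 29). The spliced coding sequences are shown 5′ to 3′ with the differing bases in capitals.
UQCRH: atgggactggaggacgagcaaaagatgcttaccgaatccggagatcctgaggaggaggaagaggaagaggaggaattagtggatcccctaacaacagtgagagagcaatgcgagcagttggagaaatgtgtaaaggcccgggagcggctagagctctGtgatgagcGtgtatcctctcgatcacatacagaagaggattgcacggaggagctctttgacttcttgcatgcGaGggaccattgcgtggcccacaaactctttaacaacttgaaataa
UQCRHL: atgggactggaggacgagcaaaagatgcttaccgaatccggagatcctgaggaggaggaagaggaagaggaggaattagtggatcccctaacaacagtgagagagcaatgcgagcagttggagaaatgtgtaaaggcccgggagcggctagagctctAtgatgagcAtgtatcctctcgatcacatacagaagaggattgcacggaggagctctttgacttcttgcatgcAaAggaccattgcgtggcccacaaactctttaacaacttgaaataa

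The second is MT-ATP8, a small subunit of the ATP synthase membrane part, whose 207-base frame at chrM:8366-8572 on the plus strand shares its last 46 bases with the start of MT-ATP6 (681 bases, the channel subunit a). The shared bases are in capitals.
MT-ATP8: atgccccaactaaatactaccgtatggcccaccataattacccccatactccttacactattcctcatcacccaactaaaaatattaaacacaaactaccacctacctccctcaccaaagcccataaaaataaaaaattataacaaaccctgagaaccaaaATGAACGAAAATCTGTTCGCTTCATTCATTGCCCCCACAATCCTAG

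Many members share elements near their start sites, which the rule did not use. Promoter windows of 300 bases, from 250 before to 50 after the start, were taken from RefSeq (GRCh38.p14) and were present for 38 of the 58 members. The motif of nuclear respiratory factor NRF1, which is GCGCA, any base and GCGC, searched like the others on both strands, was found in 11 of the 38 (28.9%), against 6.98% of the 27305 genes in the table. The ETS motif CCGGAAGT, bound by GABPA, was found in 10 (26.3%, against 4.95%), its shorter form CCGGAAG, which holds the first 7 letters of the longer one, in 16 (42.1%, against 12.2%), and the YY1 motif AAGATGGC in 5 (13.2%, against 3.52%). At least 1 of these motifs was in the windows of 25 members (65.8%), against 20.0% of all genes. A match is a run of letters and not a measured binding site. The windows of 4 members whose RNA differed between the sources by at least 0.5 on the log2 scale, 3 higher in DSMZ (ATP5F1C, ATP5MD and COX5B) and 1 higher in ATCC (COX8A), are shown 5′ to 3′ on the strand of the gene, with matches of the NRF1 or ETS motif on either strand in capitals. They were picked because they held a match. The windows of ATP5F1E (higher in DSMZ) and COX7B (higher in ATCC), which differed by as much, held none and are not shown. ATP5F1C lies at chr10:7787927-7788226 (plus strand), ATP5MD (listed by RefSeq as ATP5MK) at chr10:103396426-103396725 (minus), COX5B at chr2:97645812-97646111 (plus) and COX8A at chr11:63974370-63974669 (plus).
ATP5F1C: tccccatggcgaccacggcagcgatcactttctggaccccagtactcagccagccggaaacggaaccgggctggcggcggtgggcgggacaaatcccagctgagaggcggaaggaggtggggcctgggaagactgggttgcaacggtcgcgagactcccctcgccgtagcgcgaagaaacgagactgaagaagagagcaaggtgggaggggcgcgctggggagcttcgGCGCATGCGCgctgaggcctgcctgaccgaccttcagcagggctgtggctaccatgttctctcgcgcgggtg
ATP5MD: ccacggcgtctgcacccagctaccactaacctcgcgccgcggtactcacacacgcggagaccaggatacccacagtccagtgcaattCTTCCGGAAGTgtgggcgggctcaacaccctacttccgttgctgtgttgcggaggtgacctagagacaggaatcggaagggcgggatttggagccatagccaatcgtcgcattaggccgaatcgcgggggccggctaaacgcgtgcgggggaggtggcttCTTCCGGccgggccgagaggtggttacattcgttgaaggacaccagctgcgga
COX5B: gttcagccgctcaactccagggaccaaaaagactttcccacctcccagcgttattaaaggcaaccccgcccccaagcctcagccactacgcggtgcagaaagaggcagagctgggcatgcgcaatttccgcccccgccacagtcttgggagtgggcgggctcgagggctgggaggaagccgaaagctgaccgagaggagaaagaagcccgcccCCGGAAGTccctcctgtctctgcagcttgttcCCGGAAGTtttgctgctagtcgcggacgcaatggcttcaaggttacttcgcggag
COX8A: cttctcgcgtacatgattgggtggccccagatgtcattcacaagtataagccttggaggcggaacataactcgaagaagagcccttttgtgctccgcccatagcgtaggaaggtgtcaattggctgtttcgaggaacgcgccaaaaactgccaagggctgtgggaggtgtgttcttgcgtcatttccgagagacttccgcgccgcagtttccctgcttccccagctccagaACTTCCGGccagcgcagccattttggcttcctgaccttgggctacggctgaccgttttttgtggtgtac
Of the 12 members that passed the test below and had a window, 3 held the NRF1 motif and 3 the longer ETS motif. Of the 22 members that were tested and did not pass, 7 held each.

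Between the 2 sources some complex II to V genes differed, in both directions, and most of those tested did not pass. Every comparison below is DSMZ minus ATCC, tested by the quasi-likelihood test of edgeR with p-values adjusted by Benjamini-Hochberg over all 14577 tested genes, with a threshold of 0.05. Of the 50 members that passed the filter on low counts, 12 were higher in DSMZ, 7 were higher in ATCC and 31 did not pass. That is 38% called, against 49.8% of all tested genes (24.1% higher in DSMZ and 25.7% higher in ATCC). The 3 libraries of one source did not overlap those of the other in 27 members (54%), against 62.4% of all tested genes. The median log2 fold change was 0.07 over the members and 0.01 over all genes, and the median size of the change without its sign was 0.21 and 0.47. Among called members, 12 changed by at least 0.5 on the log2 scale, and 40.8% of all tested genes were called with a change of that size. Shares near or below the background give no result that is particular to the members.

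**Figure D1:**
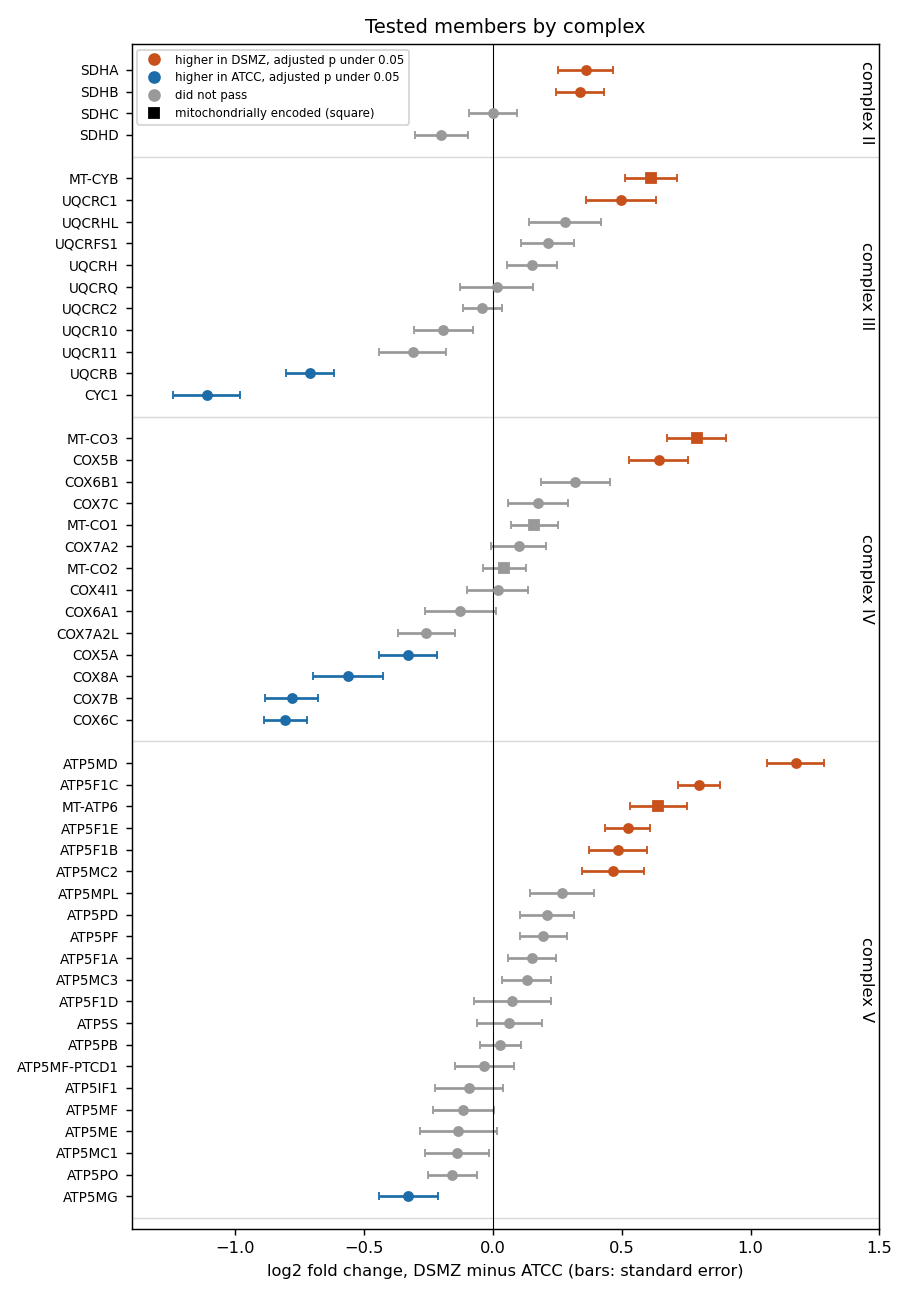
Log2 fold change (x axis, DSMZ minus ATCC, with standard errors as bars, 3 libraries per source) of the 50 tested members, listed by complex on the y axis. Orange points were higher in DSMZ and blue points higher in ATCC at an adjusted p under 0.05, grey points did not pass and squares are mitochondrially encoded; values run from -1.11 for CYC1 to 1.17 for ATP5MD, with both directions in complexes III, IV and V.

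By genome of origin, 3 of the 5 tested mitochondrially encoded members were higher in DSMZ and 0 in ATCC, with a median log2 fold change of 0.61. By DESeq2 and limma voom the 3 were called as well. Of the 45 tested nuclear-encoded members, 9 were higher in DSMZ, 7 were higher in ATCC and 29 did not pass (35.6% called), and their median log2 fold change was 0.03. ATCC replicate 2 was the library with the largest GC deviations. Leaving it out brought the nuclear counts to 21 higher in DSMZ and 8 higher in ATCC. The backgrounds were 31.7% and 32.3% of all genes tested in that fit. Leaving out ATCC replicate 3 brought the nuclear counts to 4 and 5, leaving out DSMZ replicate 1 to 5 and 4, and leaving out DSMZ replicate 2 to 5 and 5. Over all tested genes, calls with 1 library left out ranged from 5509 to 9515, against 7265 with none left out. The changes in the nuclear counts are therefore not read as particular to the members. The mitochondrial count stayed at 3 in each of these fits.

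The mitochondrially encoded members were the most abundant. On the TPM scale (abundance corrected for transcript length), the mean over all 6 libraries was 10829 for MT-CO1, 10438 for MT-CO3, 10289.5 for MT-CO2, 7408 for MT-ATP6 and 4038 for MT-CYB. The nuclear-encoded members that passed the filter ranged from 7.91 TPM for ATP5MF-PTCD1 to 1417 TPM for COX7A2. MT-CO3, the third core subunit of cytochrome c oxidase, was at 3653, 2797 and 3463 CPM in ATCC and 5837, 5292 and 6022 in DSMZ. All DSMZ libraries lay above all ATCC libraries (log2 fold change 0.79, SE 0.11, adjusted p = 0.00103), a 1.73-fold difference. MT-ATP6, which forms the proton channel with the c-ring, was at 2147, 1679.9 and 2078 CPM in ATCC and 3177, 2845 and 3193 in DSMZ and did not overlap either (log2 fold change 0.64, SE 0.11, adjusted p = 0.00235). MT-CYB, cytochrome b and the only mitochondrially encoded subunit of complex III, was at 2499.9, 2094 and 2587 CPM in ATCC and 3814, 3448 and 3728 in DSMZ, again without overlap (log2 fold change 0.61, SE 0.10, adjusted p = 0.00179). No alternative setting, left-out libraries included, changed the call of MT-CO3, MT-ATP6 or MT-CYB.

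The other 2 catalytic subunits of cytochrome c oxidase did not show this. MT-CO1, which holds the oxygen-reducing centre, was at 11216, 10415 and 12286 CPM in ATCC and 12691, 11748 and 13503 in DSMZ. The groups overlapped, and the log2 fold change of 0.16 (SE 0.09) did not pass (adjusted p = 0.179, 95% interval -0.02 to 0.34). MT-CO2, which accepts electrons from cytochrome c, was at 3395, 3323 and 3687 CPM in ATCC and 3579, 3362 and 3799.9 in DSMZ, also with overlap (log2 fold change 0.05, SE 0.08, adjusted p = 0.670, 95% interval -0.12 to 0.21). Because the 3 oxidase messengers come from the same polycistronic RNA, their TPM ratios within a library were compared. The ratio of MT-CO3 to MT-CO1 was 0.835, 0.688 and 0.722 in the ATCC libraries and 1.18, 1.15 and 1.14 in the DSMZ libraries. So MT-CO3 was below MT-CO1 in each ATCC library and above it in each DSMZ library. MT-ATP6 to MT-CO1 stood at 0.623, 0.525 and 0.550 in ATCC and 0.815, 0.788 and 0.769 in DSMZ, and MT-CYB to MT-CO1 at 0.329, 0.297 and 0.311 against 0.444, 0.433 and 0.408. MT-CO2 to MT-CO1 moved the other way, from 0.977, 1.03 and 0.969 in ATCC to 0.910, 0.924 and 0.909 in DSMZ. In each of these 4 ratios the libraries of the sources did not overlap. No p is given for the ratios, since the pairs were formed from members chosen with earlier results known. The other ratios, given with their genes below, did not overlap either, except UQCRHL to UQCRH.

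**Figure D2:**
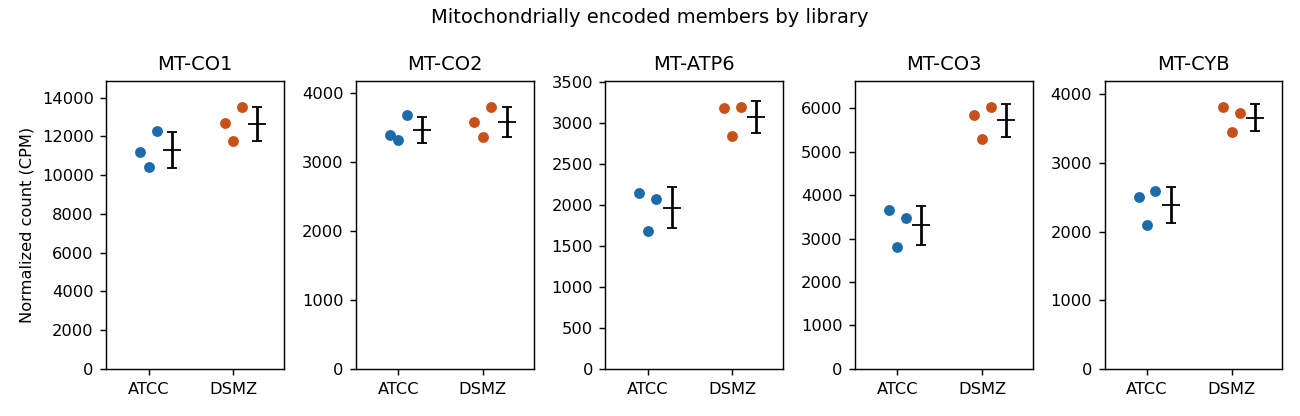
Normalized count in CPM (y axis, from 0) of the 5 mitochondrially encoded members with reads, in the 3 ATCC libraries (blue) and the 3 DSMZ libraries (orange); black marks are the mean and SD of each source. MT-ATP6, MT-CO3 and MT-CYB separate the sources, while MT-CO1 and MT-CO2 overlap.

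Along the mitochondrial genome the differing members were not one block. In order of position on the plus strand the log2 fold changes were 0.26 for MT-ND1, 0.18 for MT-ND2, 0.16 for MT-CO1, 0.05 for MT-CO2, 0.64 for MT-ATP6, 0.79 for MT-CO3, 0.27 for MT-ND3, -0.19 for MT-ND4L, -0.08 for MT-ND4, 0.01 for MT-ND5 and 0.61 for MT-CYB. The MT-ND genes encode subunits of complex I and are not members. MT-ATP6 and MT-CO3 are neighbours, at chrM:8527-9207 and chrM:9207-9990, and MT-CYB lies apart from them at chrM:14747-15887. The other gene called was MT-ND6, the complex I gene on the minus strand, at 1.34 (adjusted p = 9.58e-05).

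MT-ATP8 was listed at 0 counts in all 6 libraries. Its transcript is 207 bases long with an effective length of 20.1 in the files, against 382 for MT-ATP6, and its last 46 bases, in capitals above, are also part of the MT-ATP6 transcript. MT-ATP6 has a near-identical nuclear copy on chromosome 1, MTATP6P1, to which the authors' quantification gave 26.9 to 29.1% as many counts as to MT-ATP6 in each library. The copy differed in the same direction (log2 fold change 0.72), and the sum of both was 2503 ± 312 CPM in ATCC and 3951 ± 240.0 CPM in DSMZ (n = 3 each). Reads of the 2 genes are uncertain in their assignment, and the log2 difference of the sum was 0.66.

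Complex II had 2 members of 4 higher in DSMZ, the pair that forms the matrix part of the enzyme, and neither difference was large. SDHA, the flavoprotein that oxidises succinate (chromosome 5, 218241 to 256700, plus strand), was at 94.4, 114 and 97.6 CPM in ATCC and 125, 128 and 139.8 in DSMZ, with the highest ATCC library below the lowest DSMZ library (log2 fold change 0.36, SE 0.11, adjusted p = 0.0249). SDHB, the iron-sulfur subunit that leads electrons on to the membrane (chromosome 1, 17018722 to 17054170, minus strand), was at 75.5, 87.0 and 83.1 CPM in ATCC and 106, 105 and 101 in DSMZ, without overlap (log2 fold change 0.34, SE 0.09, adjusted p = 0.0182). Both calls were near the threshold. SDHA had an adjusted p of 0.104 without ATCC replicate 1, 0.149 without ATCC replicate 3, and 0.087, 0.106 and 0.102 without DSMZ replicates 1, 2 and 3. For SDHB the same 5 fits gave 0.0842, 0.102, 0.112, 0.117 and 0.0545. Without ATCC replicate 2 both kept the call, at 3.46e-04 for SDHA and 7.76e-04 for SDHB, as they did with the GC correction, at 0.00109 and 0.00477. The complex II count was 0 with upper quartile normalization and 0 without a filter on low counts.

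The membrane anchors SDHC and SDHD, which bind ubiquinone and haem, did not pass. SDHC was at 155, 185 and 169 CPM in ATCC and 169, 169 and 172 in DSMZ, with the DSMZ libraries inside the ATCC range (log2 fold change 0.00, SE 0.09, adjusted p = 0.989), and its 95% interval of -0.18 to 0.18 bounds the difference. SDHD was at 111, 92.5 and 106 CPM in ATCC and 93.5, 88.0 and 88.4 in DSMZ, where 1 ATCC library lay within the DSMZ range (log2 fold change -0.20, SE 0.10, adjusted p = 0.141). SDHD had an adjusted p of 0.00414 without ATCC replicate 2 and 0.0164 with the GC correction. Reads of SDHA can be shared with 3 transcribed pseudogenes. As a share of the SDHA counts, SDHAP1 had 5.24 to 7.90% in the ATCC libraries and 13.4 to 16.4% in the DSMZ libraries, SDHAP2 3.91 to 5.20% and 8.51 to 10.5%, and SDHAP3 2.38 to 3.14% and 3.08 to 4.70%. Their log2 fold changes were 1.55, 1.41 and 0.92. Together with them SDHA had 116 ± 9.81 CPM (ATCC) and 168 ± 11.4 CPM (DSMZ), a log2 difference of 0.54.

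Complex III held the lowest value of all members beside 2 that were higher in DSMZ. Of its 11 members 2 were higher in DSMZ (MT-CYB and UQCRC1) and 2 in ATCC (CYC1 and UQCRB). Without ATCC replicate 2 the 4 calls became 7. In that fit 31.7% of all tested genes were higher in DSMZ and 32.3% in ATCC, so this rise is not particular to the members. CYC1, cytochrome c1, which hands the electron to cytochrome c (chromosome 8, 144095027 to 144097525, plus strand), was at 126, 174 and 146 CPM in ATCC and 68.0, 67.6 and 71.4 in DSMZ. Each DSMZ library lay far below the lowest ATCC library (log2 fold change -1.11, SE 0.13, adjusted p = 3.57e-04), and the level was 2.16-fold higher in ATCC. UQCRB, a ubiquinone-binding subunit (chromosome 8, 96225920 to 96235634, minus strand), was at 259, 232 and 269 CPM in ATCC and 154, 148 and 163 in DSMZ, also without overlap (log2 fold change -0.71, SE 0.09, adjusted p = 6.54e-04). No setting changed either call. UQCRC1, a core protein on the matrix side (chromosome 3, 48599002 to 48610976, minus strand), was at 112, 162 and 130.2 CPM in ATCC and 185, 191 and 194 in DSMZ, without overlap and with a wide spread among the ATCC libraries (log2 fold change 0.50, SE 0.14, adjusted p = 0.0184). Transcripts not annotated as protein-coding held 79.7 to 87.9% of the UQCRC1 counts and 85.1 to 86.7% of the UQCRB counts, and with protein-coding transcripts only the adjusted p of UQCRC1 was 0.0566.

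The adjusted p of UQCRC1 was 0.0564, 7.01e-05 and 0.0957 without ATCC replicates 1, 2 and 3 and 0.0691, 0.0819 and 0.0625 without DSMZ replicates 1, 2 and 3. The ratio of CYC1 to UQCRC1 in TPM was 0.936, 0.898 and 1.07 in ATCC and 0.349, 0.290 and 0.323 in DSMZ, so 2 genes of the same complex that were near 1 to 1 in one source were not in the other. That ratio is not one between coding messengers. Transcripts not annotated as protein-coding held 91.0 to 95.1% of the UQCRC1 TPM and 10.3 to 22.0% of the CYC1 TPM. UQCRC2, the second core protein, was at 193, 192 and 192 CPM in ATCC and 182, 187 and 191 in DSMZ. The groups just failed to overlap, yet the difference was small (log2 fold change -0.04, SE 0.08, adjusted p = 0.696). UQCRFS1, the Rieske iron-sulfur protein, was at 79.8, 96.0 and 82.2 CPM in ATCC and 97.8, 102 and 99.4 in DSMZ and did not pass (log2 fold change 0.21, SE 0.10, adjusted p = 0.120), although all DSMZ libraries lay above the ATCC libraries. Without ATCC replicate 2 its adjusted p was 0.0015. UQCR10, UQCR11 and UQCRQ, small accessory subunits, had log2 fold changes of -0.19, -0.31 and 0.02 and did not pass. For UQCR11 the libraries of the sources did not overlap, and its call differed in 7 alternative fits, with adjusted p over all alternatives of 0.00674 to 0.225. With the GC correction it passed as higher in ATCC (log2 fold change -0.27, adjusted p 0.00681), while with protein-coding transcripts only it passed the other way, as higher in DSMZ (0.63, adjusted p 0.00983).

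UQCRH was at 205, 241 and 214 CPM in ATCC and 231, 243 and 259.9 in DSMZ, with overlap (log2 fold change 0.15, SE 0.10, adjusted p = 0.232). Its copy UQCRHL was at 84.2, 119.7 and 111 CPM in ATCC and 124, 123 and 136 in DSMZ, without overlap by a narrow margin (log2 fold change 0.28, SE 0.14, adjusted p = 0.135). Per length, UQCRHL had 0.0606 to 0.0782 of the TPM of UQCRH across the libraries. Of the UQCRH TPM, 77.9 to 85.1% lay on transcripts not annotated as protein-coding, against 0% for UQCRHL. This ratio, too, is thus not one between coding messengers. The UQCRHL transcript in the files is 2180 bases long, while the UQCRH messenger is 604, and with only 4 coding bases that differ (in capitals above) reads of the coding part are split between the 2 genes by estimate. Both passed without ATCC replicate 2 (adjusted p 0.013 for each).

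Complex IV members moved in both directions, and in each of its paralogue pairs the form known from most tissues held nearly all counts. Of its 20 members 14 were tested, with 2 higher in DSMZ (MT-CO3 and COX5B), 4 higher in ATCC (COX6C, COX7B, COX8A and COX5A) and 8 not called. COX6C, a small transmembrane subunit (chromosome 8, 99873200 to 99894062, minus strand), was at 229, 221 and 229 CPM in ATCC and 125, 127 and 137 in DSMZ. The ATCC libraries were tightly grouped and far above the DSMZ libraries (log2 fold change -0.80, SE 0.08, adjusted p = 2.06e-04). COX7B, another transmembrane subunit (chromosome X, 77899438 to 77907373, plus strand), was at 85.8, 98.2 and 94.9 CPM in ATCC and 51.5, 52.5 and 58.5 in DSMZ, with no overlap (log2 fold change -0.78, SE 0.10, adjusted p = 6.45e-04). COX8A, the ubiquitous form of the smallest subunit (chromosome 11, 63974607 to 63976543, plus strand), was at 40.5, 55.0 and 44.2 CPM in ATCC and 30.2, 33.6 and 30.8 in DSMZ, also without overlap (log2 fold change -0.56, SE 0.14, adjusted p = 0.0107). The COX8A call was lost without DSMZ replicate 1 (adjusted p 0.0572), and no setting changed those of COX6C and COX7B.

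COX5B, a zinc-binding subunit on the matrix side (chromosome 2, 97646040 to 97648383, plus strand), went the other way, at 68.1, 85.2 and 68.9 CPM in ATCC and 112, 115 and 120.3 in DSMZ. All DSMZ libraries lay above all ATCC libraries (log2 fold change 0.64, SE 0.11, adjusted p = 0.00269), and no setting changed the call. Of its counts, 96.3 to 97.2% were assigned to transcripts not annotated as protein-coding. COX5A, its partner subunit, was at 145, 186 and 156 CPM in ATCC and 129, 124 and 134 in DSMZ, lower in each DSMZ library (log2 fold change -0.33, SE 0.11, adjusted p = 0.0444). That call was at the edge of the threshold: its adjusted p over the alternatives ran from 0.00873 to 0.176, and was 0.093 without ATCC replicate 3 and 0.144, 0.176 and 0.10 without DSMZ replicates 1, 2 and 3. The ratio of COX5B to COX5A in TPM was 0.495, 0.488 and 0.467 in ATCC and 0.928, 0.997 and 0.951 in DSMZ. In the ATCC libraries the COX5A total was thus the higher by about as much in each, and in DSMZ the 2 totals were close to equal. Of the COX5B TPM, 97.2 to 97.8% lay on transcripts not annotated as protein-coding, against 0% for COX5A. The ratio is therefore not one between coding messengers. The ratio of COX6C to COX4I1 was 1.77, 1.21 and 1.51 in ATCC and 0.810, 0.823 and 0.849 in DSMZ, so COX6C went from above to below COX4I1.

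COX4I1, the ubiquitous form of the largest nuclear-encoded subunit and a site of regulation by ATP, was at 247, 334 and 280.1 CPM in ATCC and 291, 286 and 296 in DSMZ. The DSMZ libraries lay inside the ATCC range (log2 fold change 0.02, SE 0.12, adjusted p = 0.902, 95% interval -0.21 to 0.25). Its paralogue COX4I2, known from lung, had 0 counts in all libraries. COX6A1, the liver-type form, was at 65.7, 93.4 and 81.1 CPM in ATCC and 70.6, 72.4 and 77.1 in DSMZ, with overlap (log2 fold change -0.13, SE 0.14, adjusted p = 0.479), and the muscle form COX6A2 had 0 counts. COX7A2, the liver-type form of its pair and the most abundant nuclear-encoded member in TPM, was at 272, 349 and 305 CPM in ATCC and 323, 330.4 and 340.4 in DSMZ, with overlap (log2 fold change 0.10, SE 0.11, adjusted p = 0.460), and passed without ATCC replicate 2 (adjusted p 0.0213). The muscle form COX7A1 had 0 counts. COX7A2L was at 91.9, 111 and 89.0 CPM in ATCC and 80.5, 80.2 and 83.6 in DSMZ, higher in every ATCC library (log2 fold change -0.26, SE 0.11, adjusted p = 0.0893), and did not pass, though it did in both limma fits on TPM (lowest adjusted p 0.0386). COX7C, a small transmembrane subunit, was at 109, 143 and 123 CPM in ATCC and 137, 138 and 148 in DSMZ, with overlap (log2 fold change 0.18, SE 0.12, adjusted p = 0.241), and passed without ATCC replicate 2 (adjusted p 0.00624).

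Of the other paralogues, COX7B2 had 0 counts in all libraries, and COX8C had 2 counts over the ATCC libraries and 0 over the DSMZ libraries. COX6B2, known from testis, had 13 counts over the ATCC libraries and 18 over the DSMZ libraries, at most 0.303 CPM in any library. Its partner COX6B1 was at 85.3, 118 and 92.3 CPM in ATCC and 118, 125 and 127 in DSMZ, with DSMZ libraries in the upper part of the range and overlap through ATCC replicate 2 (log2 fold change 0.32, SE 0.13, adjusted p = 0.0803). It passed without that library (adjusted p 0.000241) and with the GC correction (0.00323). Where a group of 3 libraries had 0 counts, levels up to 0.0368 CPM (ATCC) or 0.0338 CPM (DSMZ) remain possible (3 counts, counting error only). No fold is given for these genes, which were below the filter. So for every pair of complex IV the form found in most tissues carried nearly all counts in both sources.

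**Figure D3:**
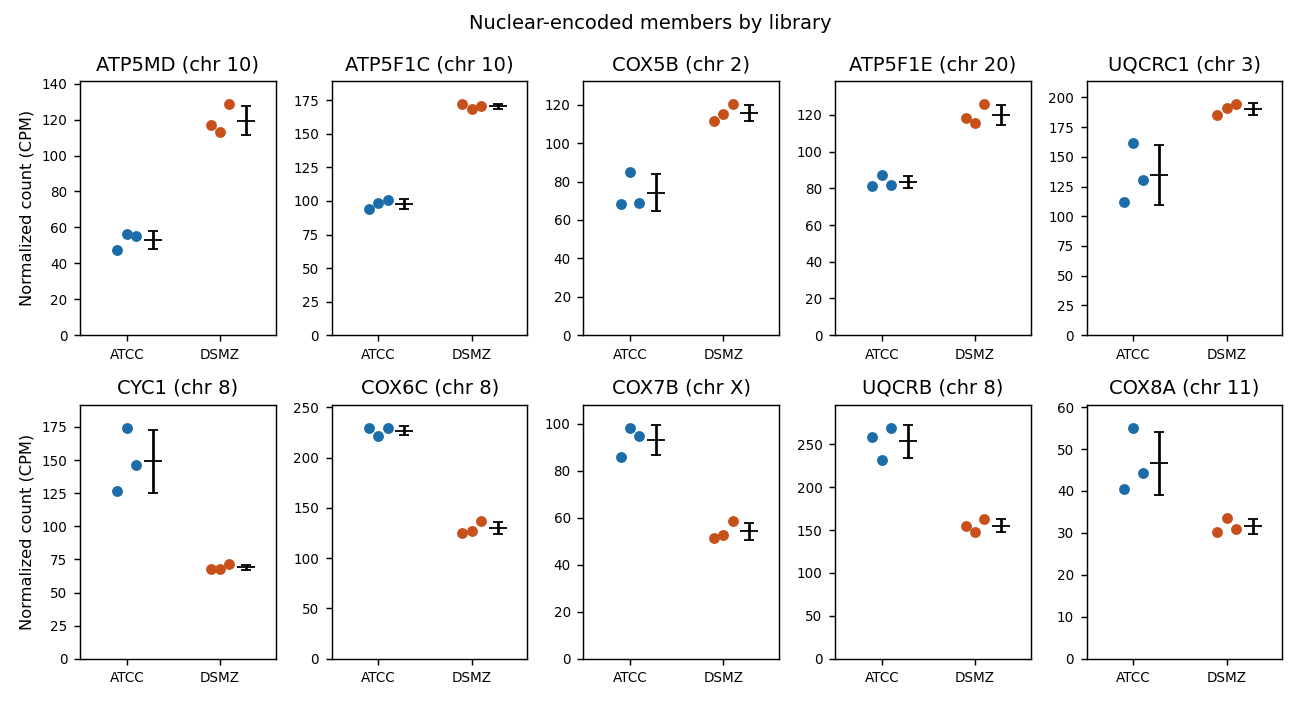
Normalized count in CPM (y axis, from 0) of 10 nuclear-encoded members in the 3 ATCC libraries (blue) and the 3 DSMZ libraries (orange), with mean and SD in black and the chromosome in each title. The upper row holds members higher in DSMZ and the lower row members higher in ATCC, and in each panel the sources do not overlap.

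Complex V had more members higher in DSMZ than in ATCC. Of its 23 members 21 were tested, with 6 higher in DSMZ (ATP5MD, ATP5F1C, MT-ATP6, ATP5F1E, ATP5F1B and ATP5MC2), 1 higher in ATCC (ATP5MG) and 14 not called. That is 33.3% called, below the 49.8% of all tested genes. The 7 calls became 13 without ATCC replicate 2 and 4 without ATCC replicate 3. Without ATCC replicate 2, 31.7% of all tested genes were higher in DSMZ and 32.3% in ATCC, so the rise to 13 is not particular to the members. With 1 library left out, calls over all tested genes ran from 5509 to 9515, against 7265 with none left out. The fall to 4 is likewise not read as particular to the members. In the catalytic head, ATP5F1B, the beta subunit that carries the catalytic sites (chromosome 12, 56638175 to 56646068, minus strand), was at 719, 956 and 815 CPM in ATCC and 1126, 1149 and 1214 in DSMZ, without overlap (log2 fold change 0.49, SE 0.11, adjusted p = 0.00909). It lost the call without ATCC replicate 3 (adjusted p 0.0582). ATP5F1A, the alpha subunit that alternates with beta in the head, was at 638, 769 and 696 CPM in ATCC and 761, 767 and 811 in DSMZ. The highest ATCC library lay among the DSMZ libraries, and the difference did not pass (log2 fold change 0.15, SE 0.09, adjusted p = 0.206, 95% interval -0.03 to 0.33). Without ATCC replicate 2 it did (adjusted p 0.00883).

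In the central stalk, ATP5F1C, the gamma subunit that turns inside the head (chromosome 10, 7788129 to 7807815, plus strand), was at 93.8, 98.9 and 101 CPM in ATCC and 172, 168 and 171 in DSMZ. Replicates were close within each source and the sources were far apart (log2 fold change 0.80, SE 0.08, adjusted p = 2.06e-04). ATP5F1E, the epsilon subunit (chromosome 20, 59025467 to 59032382, minus strand), was at 81.0, 87.5 and 81.9 CPM in ATCC and 118, 116 and 126 in DSMZ, without overlap (log2 fold change 0.52, SE 0.09, adjusted p = 0.00210). The ATP5F1E call did not hold when GC content was corrected for: the log2 fold change was then 0.17 and the adjusted p 0.562, in a range over all alternatives of 5.91e-05 to 0.562. Its transcript in the files is 3665 bases long. ATP5F1D, the delta subunit of the stalk, had a log2 fold change of 0.08 (SE 0.15) and did not pass. It passed with the GC correction (log2 fold change 0.29, adjusted p 0.00703) and without ATCC replicate 2 (0.24, adjusted p 0.0412).

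In the membrane part, ATP5MD (also named USMG5, DAPIT or ATP5MK), a small subunit linked to dimers of the enzyme (chromosome 10, 103389041 to 103396492, minus strand), had the largest change of all members. It was at 47.2, 56.6 and 54.9 CPM in ATCC and 117, 113 and 129 in DSMZ, without overlap and 2.26-fold higher in DSMZ (log2 fold change 1.17, SE 0.11, adjusted p = 1.40e-04). No setting changed the calls of ATP5MD and ATP5F1C. Set against ATP5F1A in TPM, ATP5MD stood at 0.4297, 0.439 and 0.421 in ATCC and 0.828, 0.796 and 0.886 in DSMZ. ATP5MG, subunit g (chromosome 11, 118401154 to 118431496, plus strand), was the member higher in ATCC, at log2 fold change -0.33, SE 0.11, adjusted p = 0.0458. Its adjusted p over the alternatives ran from 0.00653 to 0.164, being 0.0997 without ATCC replicate 3 and 0.160, 0.152 and 0.118 without DSMZ replicates 1, 2 and 3. ATP5MGL, its copy, had 13 counts over the ATCC libraries and 6 over the DSMZ libraries.

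Subunit c, the ring that turns as protons pass, is encoded by 3 genes that give the same mature protein. ATP5MC2 was at 121, 164 and 138 CPM in ATCC and 196, 195 and 195 in DSMZ, without overlap (log2 fold change 0.47, SE 0.12, adjusted p = 0.0141). ATP5MC1 was at 58.0, 77.8 and 67.3 CPM in ATCC and 60.9, 63.6 and 60.0 in DSMZ (log2 fold change -0.14, SE 0.12, adjusted p = 0.386) and ATP5MC3 at 197, 236 and 212 CPM in ATCC and 228, 237 and 242 in DSMZ (log2 fold change 0.13, SE 0.09, adjusted p = 0.281), and both overlapped. The ratio of ATP5MC2 to ATP5MC1 in TPM was 1.91, 1.90 and 1.89 in ATCC and 2.99, 2.77 and 2.95 in DSMZ. Transcripts not annotated as protein-coding held 95.8 to 100% of the ATP5MC1 TPM and 0.567 to 1.49% of the ATP5MC2 TPM. The ratio is therefore not one between coding messengers. Of the 3 genes only ATP5MC2 passed, and without ATCC replicate 3 or DSMZ replicates 1 or 2 its adjusted p was 0.0837, 0.0715 and 0.0721. Without ATCC replicate 2 ATP5MC3 passed as well (adjusted p 0.0117), and so it did with the GC correction (0.0343). ATP5IF1, the inhibitor that binds the head at low pH, was at 30.5, 40.9 and 35.6 CPM in ATCC and 33.2, 31.4 and 35.9 in DSMZ, with the groups intermixed (log2 fold change -0.09, SE 0.13, adjusted p = 0.599, 95% interval -0.35 to 0.17). The peripheral stalk subunits ATP5PB, ATP5PD, ATP5PF and ATP5PO had log2 fold changes of 0.03, 0.21, 0.20 and -0.16, and none passed. Without ATCC replicate 2 ATP5PD (adjusted p 0.00413) and ATP5PF (0.0139) did, ATP5PF also with the GC correction (0.0265), and ATP5PO did in both limma fits on TPM (lowest adjusted p 0.0302). ATP5MPL, ATP5ME, ATP5MF, ATP5MF-PTCD1 and ATP5S, at 0.27, -0.13, -0.11, -0.03 and 0.06, did not pass either, except ATP5MPL without ATCC replicate 2 (adjusted p 0.00325).

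Added up by complex, the nuclear-encoded members differed by little. Summed TPM of all nuclear-encoded members was 15968 ± 1015 in ATCC and 16043 ± 239 in DSMZ (SD, n = 3), with the groups intermixed. The sums of complex III, 2932 ± 121 and 2683 ± 70.2, and of complex IV, 5787 ± 388 and 5286 ± 61.5, were higher in each ATCC library than in any DSMZ library. Complex V was the reverse, with 6565 ± 482 and 7366 ± 117, and complex II overlapped at 683 ± 44.0 and 707 ± 15.7. The mitochondrially encoded members summed to 37438 ± 4318 TPM in ATCC and 48567 ± 2112 in DSMZ, without overlap, and ATCC replicate 2 was the lowest library at 32452. No p is given for these sums, since the members were chosen with earlier results known.

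**Figure D4:**
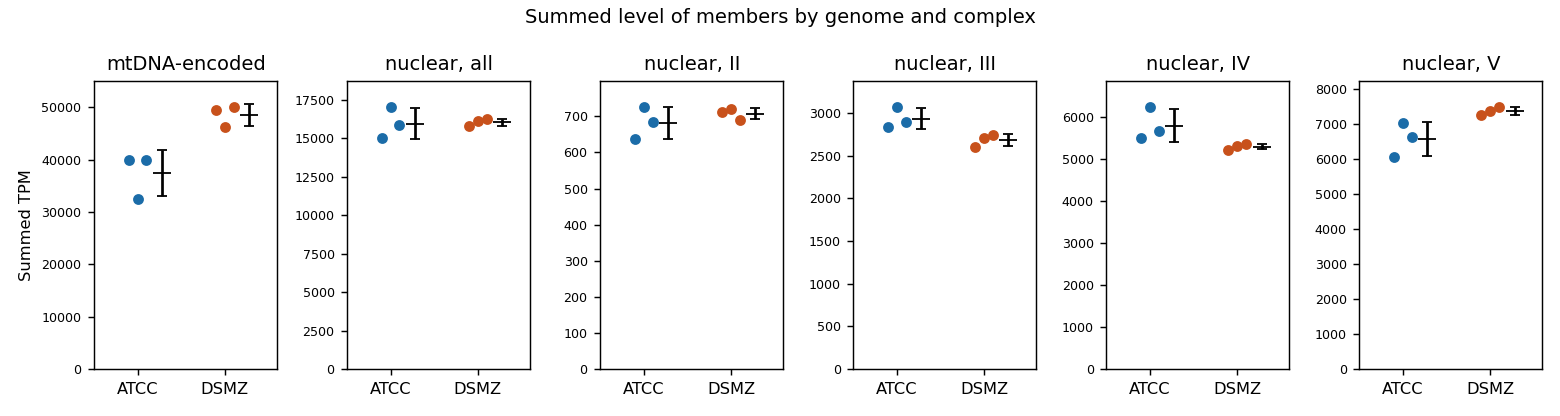
Summed TPM (y axis, from 0, a separate scale in each panel) of the mitochondrially encoded members, all nuclear-encoded members and the nuclear-encoded members of complexes II to V, by library (ATCC blue, DSMZ orange) with mean and SD in black. The mitochondrial sums separate the sources at 37438 and 48567 on average, while the nuclear sums are 15968 and 16043.

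Most of the called nuclear-encoded members lay in stretches of chromosome whose median log2 fold change had the same sign as their own. CYC1, UQCRB and COX6C, the 3 members on chromosome 8, were all higher in ATCC, on a chromosome whose 469 tested genes had a median log2 fold change of -0.86. COX7B lies on chromosome X, where the median was -0.82. ATP5F1C and ATP5MD, the 2 members on chromosome 10, lie on opposite arms, and the median of its 534 tested genes was 1.03. Chromosome 11, with COX8A, ATP5MG and SDHD, had a median of -0.36. The median over all tested genes was 0.01.

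For each of the 45 tested nuclear-encoded members the median log2 fold change of tested genes within 5 Mb on either side was computed (14 to 227 genes, members included). Across members the 2 values had a Pearson correlation of 0.868 and a Spearman correlation of 0.719; points on the same chromosome share neighbours, all share the 6 libraries, and no p is given. In 14 of the 16 called nuclear members the member and its neighbourhood had the same sign. The same count was not made over all tested genes or over members that did not pass. It is therefore not read as a trait of the members. CYC1 at -1.11 had a neighbourhood median of -1.04, COX6C at -0.80 one of -0.84, UQCRB at -0.71 one of -0.91 and COX7B at -0.78 one of -0.69. Likewise ATP5MD at 1.17 had 1.02 and ATP5F1C at 0.80 had 0.97. With the neighbourhood subtracted these 6 members were left with -0.07, 0.04, 0.20, -0.09, 0.16 and -0.17, and the SD over all 45 members fell from 0.43 to 0.21.

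The other called members followed their neighbours to differing degrees. SDHA (0.36) had a neighbourhood at -0.07, and COX5A (-0.33) one at 0.05: these were the 2 called members whose sign was opposite. After subtraction COX5B kept 0.41, ATP5F1E 0.32 and SDHB 0.28. SDHB (0.34) had the same sign as its neighbourhood, whose median was only 0.06. For UQCRC1 the remainder was 0.22, for COX8A -0.20 and for ATP5MC2 -0.09. Some members that did not pass had remainders as large, among them ATP5MC1 (-0.43), ATP5MPL (0.41), ATP5MC3 (-0.37) and UQCRH (0.30). The part of the neighbourhood in the members' differences was not tested.

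**Figure D5:**
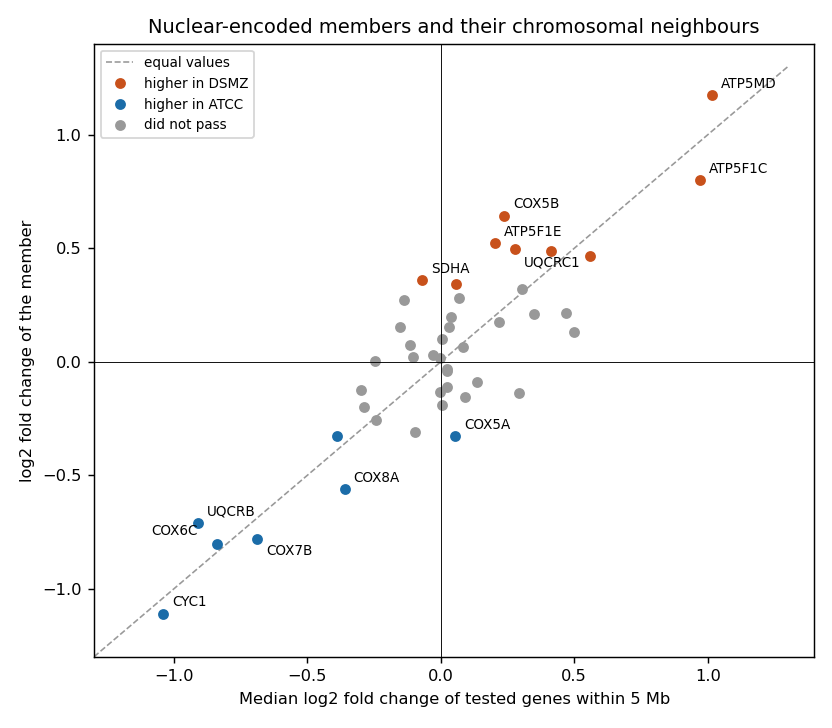
Log2 fold change (DSMZ minus ATCC) of each tested nuclear-encoded member (y axis) against the median log2 fold change of tested genes within 5 Mb (x axis), with the dashed line at equal values. CYC1, UQCRB, COX6C and COX7B sit at the lower left and ATP5MD and ATP5F1C at the upper right, close to the line. SDHA, COX5B and COX5A lie off it, as do some grey points of members that did not pass.

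Genes that build and serve the complexes were taken from lists of assembly factors, carriers and regulators, and are given with the 49.8% background in mind. Of the 4 complex II assembly factors 2 were higher in ATCC and 0 in DSMZ, SDHAF4 at -1.03 (SE 0.14) and SDHAF2, which inserts the flavin into SDHA, at -0.64 (SE 0.13). Of the 9 for complex III 1 was higher in DSMZ (UQCC1, 0.75 (SE 0.10)) and 2 in ATCC (HCCS, the haem lyase of cytochromes c and c1, -1.18 (SE 0.10), and C12orf73, -0.38 (SE 0.13)). HCCS and CYC1 were thus both higher in ATCC, on chromosomes X and 8. Of the 26 for complex IV 9 were higher in DSMZ and 7 in ATCC, with a median of 0.09. The largest in DSMZ were COX14 (1.22 (SE 0.13)), COX15, which makes haem A (0.90 (SE 0.09)), and the copper chaperone SCO1 (0.83 (SE 0.09)). Those in ATCC were COA4 (-0.97 (SE 0.12)), COA6 (-0.88 (SE 0.10)) and SURF1 (-0.66 (SE 0.16)). The medians of tested genes within 5 Mb were 0.10 for SDHAF4, -0.36 for SDHAF2, 0.17 for UQCC1, -0.88 for HCCS and -0.15 for C12orf73. Near COX14, COX15 and SCO1 they were 0.91, 1.07 and 0.60, and near COA4, COA6 and SURF1 -0.41, -0.39 and -0.54.

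Of the 6 complex V assembly factors 2 were higher in DSMZ, ATPAF2 (0.85 (SE 0.16)) and ATPAF1 (0.40 (SE 0.08)), which are chaperones of the alpha and beta subunits. TMEM70, which helps to build the c-ring, was higher in ATCC at 52.7 ± 1.56 against 20.3 ± 0.945 CPM (log2 fold change -1.38, SE 0.10, adjusted p = 4.19e-05). The list holds ATP5S under its newer name, which is also a member. Among the 10 carriers 5 were higher in ATCC and 1 in DSMZ, with a median of -0.32. VDAC3 (-1.24 (SE 0.08)), SLC25A6 (-0.76 (SE 0.12)) and SLC25A4 (-0.60 (SE 0.14)), a channel of the outer membrane and 2 ADP/ATP carriers, were higher in ATCC, and the channel VDAC2 (0.81 (SE 0.10)) in DSMZ. Of the 8 genes of cristae organisation 5 were higher in ATCC and 0 in DSMZ, led by APOO (-0.75 (SE 0.13)), APOOL (-0.64 (SE 0.21)) and C19orf70 (-0.49 (SE 0.16)). That count was 1 without DSMZ replicate 2, 2 without DSMZ replicate 1, and 3 without ATCC replicate 3 or DSMZ replicate 3. Calls over all tested genes also varied, from 5509 to 9515 with 1 library left out, against 7265. The lower counts are not read as particular to the list. Medians within 5 Mb were 0.41, -0.15 and -0.96 for ATPAF2, ATPAF1 and TMEM70. For VDAC3, SLC25A6, SLC25A4 and VDAC2 they were -0.89, -0.76, 0.12 and 0.92, and for APOO, APOOL and C19orf70 -0.52, 0.18 and -0.13.

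Of the 27 genes for mitochondrial DNA maintenance, transcription and RNA handling 8 were higher in DSMZ and 5 in ATCC, with a median of 0.20. FASTKD5, which is known to act in processing of mitochondrial messengers that lack flanking transfer RNAs, was at 21.9 ± 0.572 against 51.0 ± 1.08 CPM (log2 fold change 1.22, SE 0.09, adjusted p = 5.61e-05). TFAM, the packaging and transcription factor of mitochondrial DNA, was at 48.9 ± 17.4 against 113 ± 3.45 CPM (1.20 (SE 0.25)), and TWNK, the replicative helicase, at 15.8 ± 1.61 against 36.3 ± 1.46 CPM (1.20 (SE 0.11)). TFAM and TWNK both lie on chromosome 10. Higher in ATCC were MTERF3 (-1.42 (SE 0.18)), MTERF2 (-1.25 (SE 0.19)) and HSD17B10, a subunit of the mitochondrial RNase P (-0.98 (SE 0.14)). Within 5 Mb the medians were 0.90 for FASTKD5, 1.07 each for TFAM and TWNK, -0.88 for MTERF3, -0.24 for MTERF2 and -0.85 for HSD17B10.

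Among the 11 nuclear regulators 4 were higher in DSMZ and 2 in ATCC. PPARGC1A, a coactivator known for raising the expression of respiratory genes, had 5, 1 and 4 counts in the ATCC libraries (0.177, 0.0379 and 0.143 CPM) and 205, 235 and 337 in the DSMZ libraries (8.90, 8.32 and 9.37 CPM). It was close to absent in ATCC and measurable in every DSMZ library (log2 fold change 6.15, SE 0.29, adjusted p = 9.31e-06). Its relatives PPRC1 (0.92 (SE 0.14)) and PPARGC1B (0.48 (SE 0.11)) were also higher in DSMZ. PPRC1 lies on chromosome 10, and the median within 5 Mb was 1.03 for PPRC1, 0.07 for PPARGC1B and -0.12 for PPARGC1A. TFEB (-0.97 (SE 0.29)) and GABPB2 (-0.46 (SE 0.10)) were higher in ATCC, with medians within 5 Mb of 0.08 and -0.13. The part of the neighbourhood in the differences of the list genes was not tested.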

How the data were processed

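Poly(A) RNA of 6 THP-1 cultures was sequenced with a stranded kit, per the labels' protocols. The submitters' processing notes name kallisto 0.43.0, Trimmomatic 0.35, bcl2fastq 2.20 and GRCh38, and no source used here gives the annotation release. Files as deposited hold, per their headers, an estimated count and a TPM for each of 179973 transcripts. The deposited estimated counts are not normalized, and the deposited TPM values were scaled by the authors' quantifier for transcript length and depth.

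Transcripts were assigned to GENCODE 29 genes by identifier (91.0%) or, for copies on other sequences, by symbol (7.90%), and the rest (0.181 to 0.199% of counts) left out. Counts were summed per gene and rounded, and TPM summed. edgeR 4.0.16 (R 4.3.3; filterByExpr, TMM, quasi-likelihood test, source as the only term) tested 14577 genes with Benjamini-Hochberg adjustment, at a biological coefficient of variation of 15.9%. CPM values are TMM-scaled, intervals are 95%, and the test was checked on simulated counts. In these few genes changed, equally in both directions, and no library had a GC trend. The check therefore does not cover data such as these, where many genes differ and ATCC replicate 2 has such a trend. Counting was by pseudoalignment, so reads of near-identical genes are split by estimate.

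The members and all lists were chosen with earlier results of these data known. Values of every library are given for called members with a change of at least 0.5, the mitochondrially encoded members, the core subunits and the paralogues; from each list up to 3 called genes per direction are named. Alternatives were other normalizations, filters and tools (DESeq2 1.42.0, limma 3.58.1 with voom or on log2(TPM + 0.5) and log2(TPM + 0.1)), a GC correction, a replicate block, a length offset, restricted transcripts and leaving out each library. Library totals of 23413428 to 37119721 estimated counts set the counting precision, and p-values measure the spread between the replicate expansions. Figures used matplotlib 3.10.9.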

Additional observations from a re-analysis of the deposited data

How the results depend on the processing

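The call and direction of MT-CYB, MT-CO3, MT-ATP6, CYC1, UQCRB, COX6C, COX7B, COX5B, ATP5F1C and ATP5MD held in every alternative fit. All-gene calls numbered 4698 with at least 10 CPM in 3 libraries (fewer genes tested), 9302 with the GC correction and 5509 to 9515 with 1 library left out, against 7265. Upper quartile normalization moved the median of all genes to -0.07 and left 5 nuclear members higher in DSMZ, 0 called in complex II and MT-CO2 at -0.033. Complex II also had 0 calls with no filter on low counts and 1 call each with at least 10 CPM, the length offset and protein-coding transcripts only. The GC correction gave 5 calls among complex III assembly factors, alone or with the block. With 1 library left out, calls ranged from 0 to 3 in complex II, 3 to 7 in complex III, 4 to 13 in complex V, 4 to 21 for nuclear members higher in DSMZ, 4 to 8 for those higher in ATCC and 1 to 6 in the cristae list. The log2 difference of summed nuclear TPM ranged from -0.035 to 0.056 in those fits, and log2 fold changes from -0.088 to 0.077 for SDHC, -0.11 to 0.15 for COX4I1, -0.28 to 0.0086 for COX6A1, -0.013 to 0.21 for COX7A2 and -0.22 to 0.030 for ATP5IF1. SDHC, at 0.00, took the other sign with DESeq2 (-0.0031), its size factors (-0.0031), upper quartile (-0.083), no filter (-0.0048), at least 10 CPM (-0.040), the length offset (-0.10), protein-coding (-0.0043) or primary-assembly (-0.014) transcripts and limma on log2(TPM + 0.5) or log2(TPM + 0.1) (-0.10 each). COX4I1, at 0.02, did so with upper quartile (-0.068), at least 10 CPM (-0.024), the length offset (-0.0099) and both limma fits on TPM (-0.013 each). Minus the neighbourhood median, UQCRB was at 0.20, COX6C at 0.036, ATP5F1C at -0.17, ATP5MC2 at -0.093 and ATP5MG at 0.062. Deviations of replicates with the same number correlated at 0.0126, 0.0803 and 0.162, too weakly in 2 of the 3 pairs for the numbers to be taken as pairing the samples; with the replicate block 7015 genes were called, of them 9 nuclear members in the DSMZ direction and 5 in the other, and with the block and GC correction 9193, of them 12 and 9. Each library correlated best with its own number except DSMZ replicate 1, which was closer to ATCC replicate 2, a hint from the data and not from the design. Where not stated, the cause was not tested. Among the members, low counts limit the 8 below the filter and the transcript share of ATP5MF-PTCD1 given below.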

Other observations

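In 12 of the 50 tested members the transcript with the highest TPM was one that GENCODE 29 does not annotate as protein-coding: ATP5MC1, ATP5ME, ATP5MG, ATP5PB, ATP5S, COX5B, COX7C, UQCR11, UQCRB, UQCRC1, UQCRC2 and UQCRH. For COX5B such transcripts held 96.3 to 97.2% of the gene's estimated counts in each library, for UQCRC1 79.7 to 87.9%, for UQCRB 85.1 to 86.7%, and for ATP5ME 100% in all libraries. They did not hold most counts of every listed gene: the share was 16.8 to 18.5% for UQCRC2, 22.0 to 24.2% for COX7C and 40.9 to 55.9% for ATP5S. With protein-coding transcripts only, the log2 fold change was 0.59 for COX5B (adjusted p = 0.0336, edgeR's quasi-likelihood test), 0.75 for UQCRC1 (0.0566, not called), -0.65 for UQCRB (0.00324) and 0.48 for UQCRH (0.00949, called in that fit). The range over all alternatives was 9.35e-06 to 0.0336 for COX5B, 7.01e-05 to 0.0957 for UQCRC1, 7.43e-08 to 0.00598 for UQCRB and 0.00949 to 0.683 for UQCRH. In 2 members 1 transcript's share of the gene's TPM differed by over 10 points between the sources. For ATP5MF-PTCD1, a transcript annotated as subject to nonsense-mediated decay was at 0% in the 3 ATCC libraries and 38.2, 22.8 and 25.4% in the DSMZ libraries. By estimated counts, transcripts of ATP5MF-PTCD1 not annotated as protein-coding held at most 1.505% in any library. Its TPM shares thus rest on few counts and are not read as a switch between transcripts. A processed transcript of ATP5S was at 36.0, 39.8 and 43.1% in ATCC and 25.6, 26.5 and 16.3% in DSMZ. Neither was tested.

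Of 284 pseudogenes of members in the table, 66 had counts and 4 held over 1% of their parent's counts (MTATP6P1, SDHAP1, SDHAP2 and SDHAP3). PPARGC1A, at a log2 fold change of 6.15, lies on chromosome 4 in a neighbourhood whose median was -0.12, while the members on the same chromosome, ATP5ME and COX7B2, were at -0.13 and without counts.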
